A study of Rattus norvegicus with 16 samples.

Results

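The tumour necrosis factor (TNF) superfamily comprises ligands, most of them trimers anchored in the cell membrane, and the receptors that bind them. Its members were taken as the probe sets with a single gene symbol that starts with Tnfsf or Tnfrsf and a number, or that is Tnf, Lta, Ltb, Ltbr, Cd40, Cd40lg, Fas, Faslg or Cd27. They were chosen by name and not by their signals. This gave 35 probe sets for 28 of the 14217 genes named on the array, 11 ligands and 17 receptors, and each gene was represented by its probe set with the highest mean log2 signal. Cd27 was not analysed here.

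Affymetrix rat arrays had been hybridised with RNA of the upper end of the femur, which forms the hip joint, from animals of 4 inbred strains. Each strain had 4 arrays: F344 (labelled Fischer 344), LEW (Lewis), DA (Dark Agouti) and COP (Copenhagen 2331). The rats were 4 weeks old, and the labels name no treatment, no transgene and no sex. F344 and LEW had been crossed before, and their F2 offspring placed a skeletal locus on chromosome 4. Whether the arrays of a strain came from separate animals is not labelled, so every p-value refers to the spread between these samples, which may be technical. The values are signals on a linear scale with a trimmed mean of about 1000 on every array, and the medians of the 16 arrays were 303 to 325. With 4 arrays a strain, their number sets the precision.

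Of osteoblast and osteocyte genes, 11 of the 12 with a probe set had a mean signal above the filter level of 174, the 40th percentile of all probe sets. This held for 14 of 16 osteoclast genes, 10 of 10 erythroid genes, 8 of 8 B lymphoid genes and 9 of 9 growth plate genes, but for only 6 of 15 genes of T and natural killer cells. LEW replicate 4 had the highest level of its strain in the skeletal lists. Its mean log2 signal, centred on the 16 arrays, was 0.39 for growth plate genes, against -0.53, -0.035 and -0.29 on LEW replicates 1, 2 and 3, and 0.21 for osteoblast and osteocyte genes, against -0.10, -0.0051 and -0.053.

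As background, binding of a TNF family ligand draws receptors together at the cell surface. Receptors with a death domain can start apoptosis, and others recruit TRAF adaptors that activate the transcription factor NF-kB. In bone, Tnfsf11 (RANKL) made by osteoblast-lineage cells drives osteoclast formation through Tnfrsf11a (RANK), and Tnfrsf11b (osteoprotegerin, OPG) is a soluble decoy receptor that binds Tnfsf11 and blocks it. In the marrow, other members control the survival and activation of lymphocytes.

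The 3 ligands whose signals differed among the strains, Tnfsf10, Tnfsf13 and Ltb, are shown with a promoter window of 300 bases each, 250 before and 50 after the start that the sequence table uses, since these are the transcripts the results turn on. For Tnfsf13 and Ltb that start is the outer end of the gene. For Tnfsf10 it lies further in than the outermost annotated start, so the whole window falls within the annotated span of the gene. The sequences are those of RefSeq on the assembly GRCr8, from the strain BN, printed 5′ to 3′ on the gene's own strand, and the sequences of the 4 strains studied were not analysed here. Capitals mark matches to the NF-kB consensus or to the interferon-gamma-activated site TTCNNNGAA. Tnfsf10 lies on the plus strand at chr2:112136689-112136988, Tnfsf13 on the minus strand at chr10:54901766-54902065 and Ltb on the minus strand at chr20:3634005-3634304.
Tnfsf10: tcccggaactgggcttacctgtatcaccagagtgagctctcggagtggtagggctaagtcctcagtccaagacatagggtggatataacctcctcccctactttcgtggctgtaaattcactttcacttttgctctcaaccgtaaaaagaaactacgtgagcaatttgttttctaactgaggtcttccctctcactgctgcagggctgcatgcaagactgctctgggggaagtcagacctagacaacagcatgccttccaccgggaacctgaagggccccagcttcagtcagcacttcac
Tnfsf13: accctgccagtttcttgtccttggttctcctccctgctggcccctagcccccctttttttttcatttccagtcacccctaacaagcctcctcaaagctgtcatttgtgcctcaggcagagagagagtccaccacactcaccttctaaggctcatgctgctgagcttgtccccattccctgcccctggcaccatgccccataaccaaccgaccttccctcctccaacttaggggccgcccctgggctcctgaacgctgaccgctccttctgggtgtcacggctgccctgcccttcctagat
Ltb: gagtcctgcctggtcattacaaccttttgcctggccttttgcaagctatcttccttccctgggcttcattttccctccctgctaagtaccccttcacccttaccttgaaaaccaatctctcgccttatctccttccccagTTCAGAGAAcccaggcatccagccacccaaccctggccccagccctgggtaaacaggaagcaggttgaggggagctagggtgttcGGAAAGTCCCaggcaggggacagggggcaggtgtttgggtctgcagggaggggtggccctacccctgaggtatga
In these windows only Ltb held a match, 1 to the NF-kB consensus on the reverse strand at bases 226 to 235 (GGAAAGTCCC) and 1 to the interferon-gamma-activated site at bases 141 to 149 (TTCAGAGAA), counted from the 5′ end. Both strands were searched, also for the interferon-stimulated response element core (GAAA, any 2 bases, GAAA), and the matches shown do not overlap. Of 33469 RefSeq promoter windows of this length, 4.18% held the NF-kB consensus, 8.87% TTCNNNGAA and 3.92% the response element core. The table held 20 of the 28 members, and 3 of these 20 matched each motif: Lta, Ltb and Tnfrsf8 the first, Lta, Ltb and Tnfrsf12a the second, and Fas, Tnfrsf17 and Tnfrsf1b the last. A match describes the letters of the window and not a site in use.

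Of the 28 members, 17 had a mean signal above the filter and were tested, 6 ligands and 11 receptors. By the moderated F-test of limma, 6 of the 17 had an adjusted p under 0.05 for a difference between any of the 4 strains, which is 35.3% against 32.9% of the 10548 genes tested, so the family differed about as often as genes at large. These were the ligands Tnfsf10, Tnfsf13 and Ltb and the receptors Tnfrsf14, Tnfrsf19 and Tnfrsf12a. Strain accounted for 50.5% to 77.0% of the variance of their log2 signals, and for 6.01% to 55.2% in the other 11. This share and the F-test rest on the same signals, so the higher shares of the 6 follow from their selection. Between pairs of strains, 16 of 102 tests of members passed, all in these 6 genes, and in 15 of the 16 the 4 arrays of one strain did not overlap the 4 of the other. Of all genes, 10.4% (LEW minus DA) to 21.0% (F344 minus COP) passed in a pair, and each pair is set beside its own share below. Passing and not overlapping rest on the same signals, so the count without overlap is no separate support. Tnfsf10 alone reached a 2-fold difference, in 2 pairs.

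Counted by pair of strains, 2 or 3 of the 17 members passed. For F344 minus LEW, 3 of 17 members passed (17.6% against 14.5% of all genes tested), 1 higher (6.96% of all genes) and 2 lower (7.54%), and 4 of 17 had no overlap between the arrays (19.3% of all genes). For F344 minus COP, 2 of 17 members passed (11.8% against 21.0% of all genes tested), 0 higher (10.4% of all genes) and 2 lower (10.6%), and 2 of 17 had no overlap between the arrays (27.0% of all genes). For F344 minus DA, 3 of 17 members passed (17.6% against 17.3% of all genes tested), 1 higher (8.11% of all genes) and 2 lower (9.20%), and 7 of 17 had no overlap between the arrays (23.5% of all genes). The count was 1 without F344 replicate 2 or 3 or DA replicate 2 and 5 without LEW replicate 4. For LEW minus COP, 3 of 17 members passed (17.6% against 14.1% of all genes tested), 1 higher (6.41% of all genes) and 2 lower (7.72%), and 3 of 17 had no overlap between the arrays (17.5% of all genes). For LEW minus DA, 3 of 17 members passed (17.6% against 10.4% of all genes tested), 2 higher (4.65% of all genes) and 1 lower (5.77%), and 3 of 17 had no overlap between the arrays (13.4% of all genes). The count was 0 without LEW replicate 4 and 1 without LEW replicate 2 or 3 or DA replicate 1, 2 or 3. For COP minus DA, 2 of 17 members passed (11.8% against 12.2% of all genes tested), 1 higher (5.74% of all genes) and 1 lower (6.42%), and 4 of 17 had no overlap between the arrays (16.7% of all genes). The count was 1 without COP replicate 1, 2, 3 or 4 or DA replicate 1 or 3. The 6 pairs share arrays and are not independent. The median log2 difference of the 17 lay between -0.073 (LEW minus COP) and 0.20 (COP minus DA), against -0.015 to 0.012 over all genes. In COP minus DA, 14 of the 17 differences were above 0, where 5351 of 10548 genes were.

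**Figure D1:**
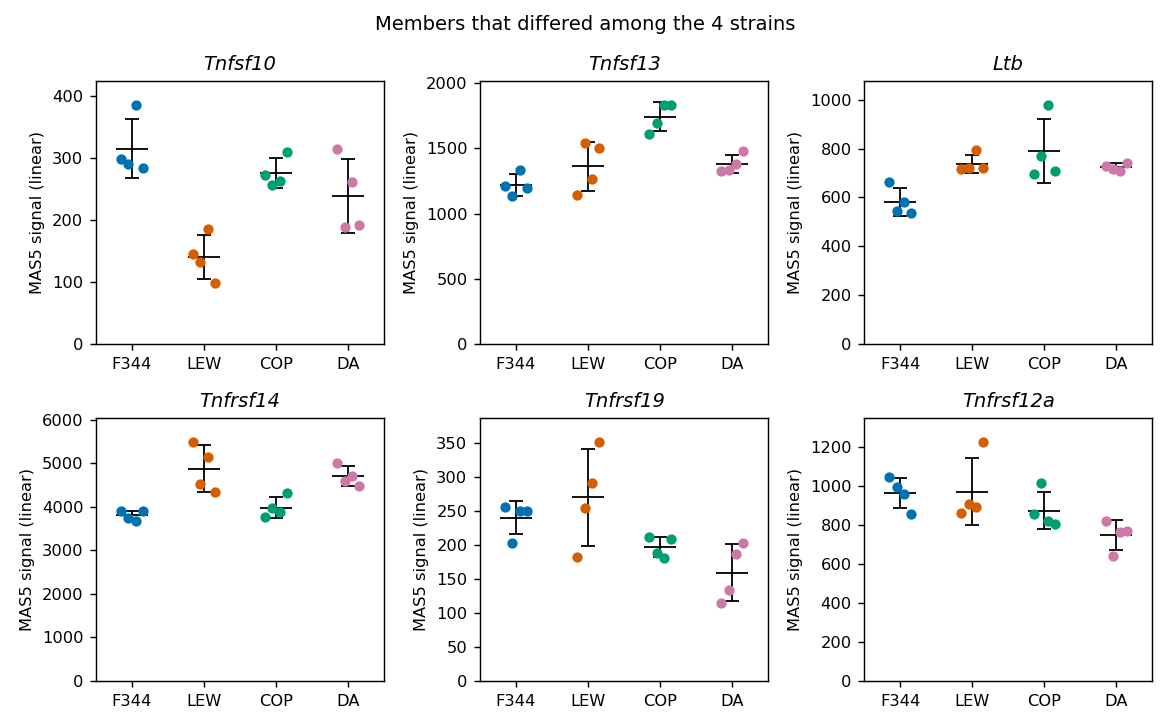
Signal on a linear scale (y axis) by strain (x axis) for the 6 members that passed the F-test. Points are single arrays, horizontal bars the means and vertical bars the SD of 4 arrays. Tnfsf10 is lowest in LEW (98.6 to 185), Tnfsf13 is highest in COP (1607 to 1832) and Ltb is lowest in F344 (535 to 662).

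Tnfsf10 (TRAIL), a ligand that can trigger apoptosis through death receptors and that also binds osteoprotegerin, was low in LEW. Its signals were 299, 289.5, 385 and 284 on the F344 arrays, 145, 133, 185 and 98.6 on the LEW arrays, 273, 256, 262 and 309 on the COP arrays, and 313, 189, 261 and 191 on the DA arrays. Every LEW array lay below every array of the other strains. The mean was 314 ± 47.6 in F344 and 140.3 ± 35.8 in LEW (SD, n = 4 each), a 2.28-fold difference (log2 difference 1.19, SE 0.20, limma adjusted p = 0.000347). LEW was also lower than COP, at 275 ± 23.8 (log2 difference -1.004, SE 0.20, limma adjusted p = 0.00159), and than DA, at 239 ± 60.03 (log2 difference -0.77, SE 0.20, limma adjusted p = 0.0174). The call against DA was lost without LEW replicate 4 or DA replicate 1 or 3 (limma adjusted p 0.0533 to 0.0675). No pair among F344, COP and DA passed. The LEW mean lies under the filter level of 174, and the gene passed the filter through the other strains.

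Markers of myeloid and T cells differed in some of the same pairs as Tnfsf10, and in others. Of 13 monocyte and macrophage genes tested, 8 higher and 0 lower passed in F344 against LEW, led by the Fc receptor gene Fcgr3a (0.99, limma adjusted p = 2.00e-05), 1 higher and 3 lower in LEW against COP and 1 higher and 3 lower in LEW against DA. In the pairs where Tnfsf10 did not pass, 4 higher and 2 lower passed in F344 against COP, 4 higher and 2 lower in F344 against DA and 2 higher and 3 lower in COP against DA. Their summed signals were 66441 to 69453 for F344, 64789 to 70229.8 for LEW, 72279.8 to 76096 for COP and 67994 to 81608 for DA, so that F344 and LEW overlapped in the sum. Of 6 tested T and natural killer cell genes, 2 higher and 0 lower passed in F344 against LEW, Il2rb (1.07, limma adjusted p = 0.00342) and Cd3g (1.04, limma adjusted p = 2.58e-05), 0 higher and 3 lower in LEW against COP and 0 higher and 1 lower in LEW against DA. Where Tnfsf10 did not pass, this list had 1 higher and 2 lower in F344 against COP, 1 higher and 0 lower in F344 against DA and 3 higher and 0 lower in COP against DA. Of the genes named here, Fcgr3a and Cd3g were also higher in F344 than in COP (1.20 and 0.74) and DA (0.91 and 1.33). Il2rb was lower in LEW than in COP (-1.22) and DA (-0.83), as Tnfsf10 was. Their sums were 5692 to 6013 for F344, 4551 to 5175 for LEW, 7027 to 7926 for COP and 4229 to 5513 for DA, while 9 of the 15 with a probe set were under the filter. Beside these counts, 14.5% of all genes passed in F344 against LEW, 14.1% in LEW against COP and 10.4% in LEW against DA. In F344 against COP, F344 against DA and COP against DA it was 21.0%, 17.3% and 12.2%. Fewer cells of a type and less RNA per cell cannot be told apart in whole tissue, and the part of these cells in the Tnfsf10 difference was not tested.

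Tnfsf13 (APRIL), a ligand that supports the survival of plasma cells and is made by myeloid cells, was high in COP. Its signals were 1208, 1139, 1337 and 1194 on the F344 arrays, 1144, 1540.1, 1264 and 1500.5 on the LEW arrays, 1607, 1693, 1831 and 1832 on the COP arrays, and 1328, 1335, 1383 and 1477 on the DA arrays. Every COP array lay above every array of the other strains. F344 had a mean of 1219 ± 83.6 and COP of 1741 ± 110.4 (SD, n = 4 each; log2 difference -0.51, SE 0.09, limma adjusted p = 0.000312), so that F344 was 1.43-fold lower. LEW, at 1362 ± 189.8, was also lower than COP (log2 difference -0.36, SE 0.09, limma adjusted p = 0.00825), and COP was higher than DA, at 1381 ± 68.5 (log2 difference 0.33, SE 0.09, limma adjusted p = 0.0184). The last call was lost without COP replicate 3 or 4 (limma adjusted p 0.0511 to 0.0516). LEW was uneven, with replicates 2 and 4 above the DA arrays and replicates 1 and 3 below them.

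A second probe set for Tnfsf13, which was not used to represent the gene, gave signals of 842, 904, 869 and 902 on the F344 arrays, 920.1, 1115, 971 and 1052 on the LEW arrays, 1283, 1355, 1502 and 1278 on the COP arrays, and 1079.8, 866, 1000.4 and 983 on the DA arrays. COP was again above the other strains on every array, and the log2 differences were -0.62 for F344 minus COP (limma adjusted p = 2.42e-05), -0.42 for LEW minus COP (limma adjusted p = 0.00187) and 0.46 for COP minus DA (limma adjusted p = 0.000954). Tnfsf12 (TWEAK), whose gene is the next protein-coding gene to Tnfsf13 on chromosome 10 of GRCr8 and whose receptor is Tnfrsf12a, did not pass in any pair. Its signals were 1185, 1144, 1188 and 1129 on the F344 arrays, 945, 1032, 996 and 1119 on the LEW arrays, 1166, 1145, 1202 and 1078 on the COP arrays, and 1183, 971, 1065 and 1193 on the DA arrays, and its largest difference was between F344 and LEW, whose arrays did not overlap (log2 difference 0.19, SE 0.081, limma adjusted p = 0.144).

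Neutrophil granule genes were highest in COP, as Tnfsf13 was, but also differed between the other strains. Of 7 tested, 0 higher and 6 lower passed in F344 against COP and 0 higher and 4 lower in LEW against COP. In COP against DA it was 4 higher and 0 lower. Lcn2 had the largest difference for F344 minus COP (-4.36, limma adjusted p = 9.37e-21), followed by Mmp8, a granule collagenase (-1.17, limma adjusted p = 4.51e-10). Unlike Tnfsf13, Lcn2 was high in LEW as well as COP, with means of 12526 and 17160, against 834 in F344 and 1023 in DA. Their summed signals were 119868 to 125445 for F344, 135709.8 to 159917 for LEW, 170446 to 179438 for COP and 142833 to 169988 for DA, with COP above all other arrays. In Lcn2 alone, COP and DA lie further apart than in these sums. That COP lies above DA in the sum therefore rests on this gene. In the pairs where Tnfsf13 did not pass, 0 higher and 4 lower passed in F344 against LEW, 0 higher and 5 lower in F344 against DA and 1 higher and 3 lower in LEW against DA. Beside these counts, 21.0% of all genes passed in F344 against COP, 14.1% in LEW against COP and 12.2% in COP against DA. In F344 against LEW, F344 against DA and LEW against DA it was 14.5%, 17.3% and 10.4%. The T and natural killer cell list also lay above all other arrays in COP, with a mean centred log2 signal of 0.24 to 0.31, against at most 0.19 elsewhere. Its genes did not move together. For F344 minus COP Nkg7 was lower (-0.74, limma adjusted p = 3.07e-06), but Cd3g was higher (0.74, limma adjusted p = 0.000801). The part of T and natural killer cells or of neutrophils in the Tnfsf13 difference was not tested.

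Ltb (lymphotoxin beta), which anchors the lymphotoxin trimer in the membrane of lymphocytes and is the ligand of Ltbr, was low in F344. Its signals were 662, 545, 581 and 535 on the F344 arrays, 715, 721, 794 and 721 on the LEW arrays, 697, 771, 978 and 708 on the COP arrays, and 731, 717, 707 and 742 on the DA arrays. All 4 F344 arrays lay below all 12 others. F344 averaged 581 ± 57.8, LEW 738 ± 37.9, COP 789 ± 131 and DA 724 ± 15.5 (SD, n = 4 each). The strongest difference was between F344 and COP (log2 difference -0.43, SE 0.11, limma adjusted p = 0.00597), followed by LEW (log2 difference -0.35, SE 0.11, limma adjusted p = 0.0319) and DA (log2 difference -0.32, SE 0.11, limma adjusted p = 0.0423). The call against LEW was lost without F344 replicate 2, 3 or 4 or LEW replicate 2 or 3 (limma adjusted p 0.0548 to 0.0983), and that against DA without F344 replicate 2, 3 or 4, LEW replicate 2, COP replicate 2 or DA replicate 1, 2, 3 or 4 (limma adjusted p 0.0511 to 0.111). LEW, COP and DA did not pass against each other. Tnf, the next gene to Ltb on chromosome 20, and Lta, the next gene to Tnf, were under the filter.

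B lymphoid genes were low in F344 as well. Of 8 tested, 0 higher and 7 lower passed against LEW, 1 higher and 7 lower against COP and 1 higher and 7 lower against DA, led by Vpreb3, a protein of B-cell precursors, with a log2 difference of -2.41, limma adjusted p = 2.81e-11, against LEW. Their summed signals were 17388 to 17783 for F344, 28887 to 31901 for LEW, 27009 to 31571 for COP and 20889 to 28397 for DA. In the pairs where Ltb did not pass, 1 higher and 0 lower passed in LEW against COP, 3 higher and 0 lower in LEW against DA and 3 higher and 0 lower in COP against DA. Of all genes, 14.5%, 21.0% and 17.3% passed in F344 against LEW, COP and DA. In LEW against COP, LEW against DA and COP against DA it was 14.1%, 10.4% and 12.2%. The neutrophil granule list was low in F344 too, at a mean centred log2 signal of -0.63 to -0.56, below all other arrays. Of its 7 genes, 0 higher and 4 lower passed against LEW, 0 higher and 6 lower against COP and 0 higher and 5 lower against DA. The comparisons with F344 share the F344 arrays, and the part of B cells or of neutrophils in the Ltb difference was not tested.

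Tnfrsf14 (HVEM), a receptor for the ligand LIGHT that also binds the lymphocyte inhibitor BTLA, divided the strains into F344 and COP with lower and LEW and DA with higher signals. Its signals were 3892, 3746, 3674 and 3896 on the F344 arrays, 5494, 4511, 5149 and 4336 on the LEW arrays, 3755, 3978, 3879 and 4304 on the COP arrays, and 5014, 4590.3, 4704 and 4483 on the DA arrays. The highest COP array stayed below the lowest LEW and DA arrays. F344 had 3802 ± 110.3 and LEW 4873 ± 542 (SD, n = 4 each; log2 difference -0.35, SE 0.07, limma adjusted p = 0.00153). F344 was also lower than DA, at 4698 ± 229 (log2 difference -0.30, SE 0.07, limma adjusted p = 0.00475). LEW was higher than COP, at 3979 ± 235 (log2 difference 0.29, SE 0.07, limma adjusted p = 0.00725), and COP was lower than DA (log2 difference -0.24, SE 0.07, limma adjusted p = 0.0295). The last call was lost without COP replicate 1, 2 or 3 or DA replicate 1 or 3 (limma adjusted p 0.0603 to 0.0967). F344 against COP (-0.064, limma adjusted p = 0.591) and LEW against DA (0.047, limma adjusted p = 0.751) did not pass.

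Erythroid genes showed a like division. Of 10 tested, 1 higher and 5 lower passed in F344 against LEW, 1 higher and 5 lower in F344 against DA, 4 higher and 0 lower in LEW against COP and 0 higher and 5 lower in COP against DA. F344 against COP gave 1 higher and 2 lower, and LEW against DA 0 by limma, with 2 at an unadjusted p under 0.05. Of all genes, 14.5%, 17.3%, 14.1% and 12.2% passed in F344 against LEW, F344 against DA, LEW against COP and COP against DA. In F344 against COP and LEW against DA it was 21.0% and 10.4%. Their summed signals were 178358 to 198097 for F344, 208797 to 238596 for LEW, 189657 to 199793 for COP and 212806 to 250453 for DA, with F344 and COP below LEW and DA on every array. The erythroid list was set beside Tnfrsf14 out of several marker lists, and 9 of its 10 genes passed the F-test. The like division is therefore no separate support. Whether erythroid cells have a part in the Tnfrsf14 difference was not tested.

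**Figure D2:**
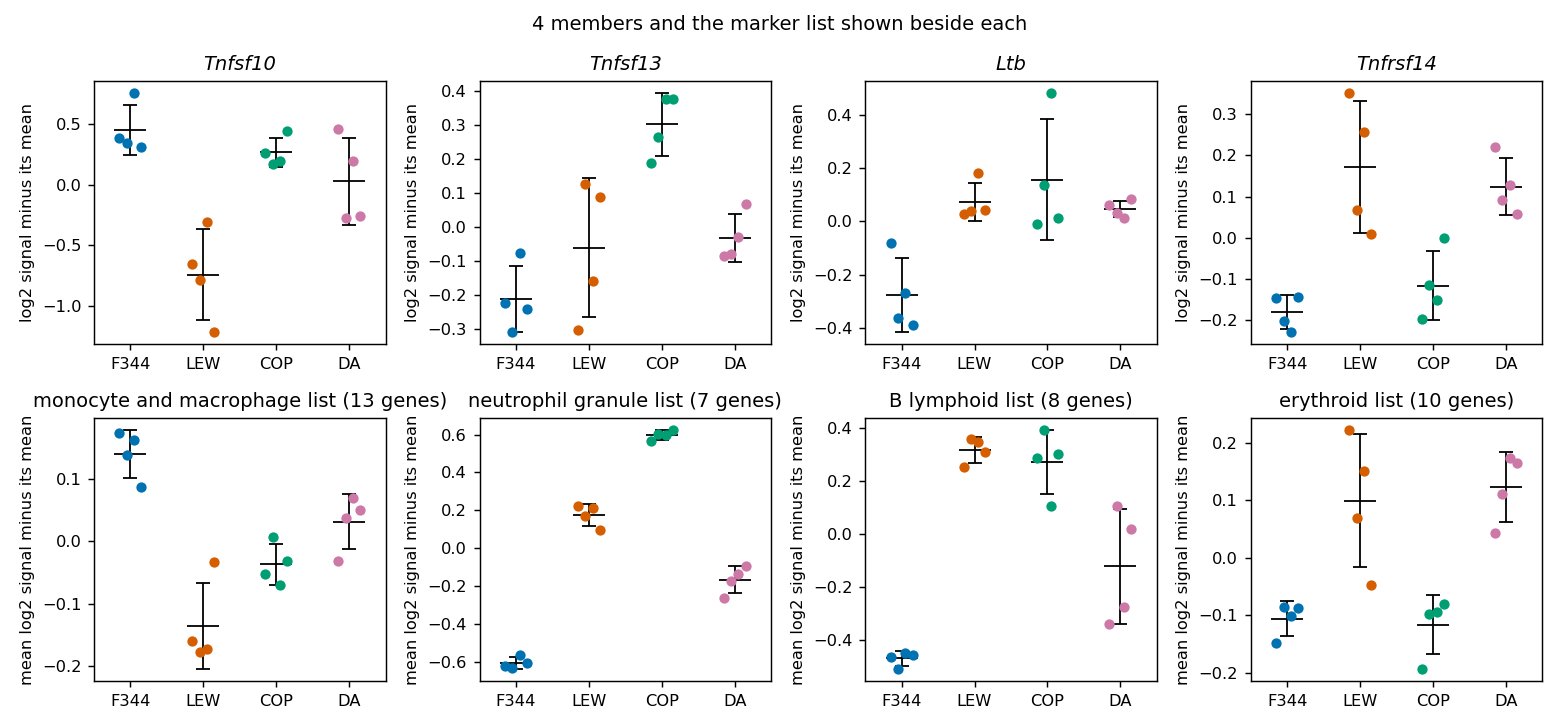
Upper row: log2 signal of Tnfsf10, Tnfsf13, Ltb and Tnfrsf14 minus its mean over 16 arrays (y axis) by strain (x axis). Lower row: mean of the same quantity over the tested genes of a marker list, 13 for monocytes and macrophages, 7 for neutrophil granules, 8 for B lymphoid and 10 for erythroid cells. Points are arrays, bars the mean and SD of 4 arrays, and each panel has its own scale. The neutrophil list lies at 0.57 to 0.63 in COP, and the B lymphoid list at -0.51 to -0.45 in F344. The neutrophil list includes Lcn2, which averaged 17160 in COP and 1023 in DA, and it is also lowest in F344 (-0.63 to -0.56).

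Tnfrsf19 (TROY), a receptor without a death domain that is known from development and from mesenchymal progenitors, was low in DA. Its signals were 257, 204, 249.9 and 249 on the F344 arrays, 182, 255, 291 and 352 on the LEW arrays, 212, 189, 181 and 208 on the COP arrays, and 115, 134, 187 and 203 on the DA arrays. LEW averaged 270.0 ± 71.1 and DA 159 ± 41.8 (SD, n = 4 each; log2 difference 0.76, SE 0.21, limma adjusted p = 0.0247), but their arrays overlapped, the DA mean lies under the filter level of 174, and the call was lost without LEW replicate 2, 3 or 4 or DA replicate 1 or 2 (limma adjusted p 0.0508 to 0.0965). F344, at 239.9 ± 24.4, did not overlap DA but did not pass (log2 difference 0.62, SE 0.21, limma adjusted p = 0.0522). This pair passed under several alternatives, among them quantile normalization (limma adjusted p = 0.0399) and without DA replicate 3 or 4 or LEW replicate 1 or 4 (limma adjusted p 0.0286 to 0.0476).

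Tnfrsf12a (Fn14), the receptor of Tnfsf12 and a gene induced by growth factors and injury, was lower in DA than in F344 and LEW. Its signals were 1045, 994, 958 and 859 on the F344 arrays, 860.5, 906, 891 and 1228 on the LEW arrays, 856, 1014, 819 and 806 on the COP arrays, and 820.3, 642, 764 and 769.9 on the DA arrays. F344 had 964 ± 78.6 and DA 749 ± 75.5 (SD, n = 4 each; log2 difference 0.37, SE 0.12, limma adjusted p = 0.0346), with no overlap, and LEW, at 971 ± 172, did not overlap DA either (log2 difference 0.37, SE 0.12, limma adjusted p = 0.0475). Both calls were close to the threshold. The first was lost without F344 replicate 1, 2 or 3 or DA replicate 2, 3 or 4 (limma adjusted p 0.0512 to 0.124), and the other without F344 replicate 1, 2 or 3, LEW replicate 2, 3 or 4, COP replicate 1, 3 or 4 or DA replicate 2, 3 or 4 (limma adjusted p 0.0513 to 0.176). For Tnfrsf12a the highest of all 16 arrays was LEW replicate 4, as it was for Tnfrsf19.

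In the RANKL, RANK and OPG group, DA had the lowest mean signals of Tnfsf11 and Tnfrsf11b, but no pair of strains passed for either representative probe set. Tnfsf11 had signals of 209.7, 263, 251 and 210.3 on the F344 arrays, 195, 184, 231 and 355 on the LEW arrays, 244, 233, 242 and 211 on the COP arrays, and 175, 128, 166 and 187 on the DA arrays. DA did not overlap F344 or COP and did overlap LEW. F344 averaged 234 ± 27.7 and DA 164 ± 25.4 (SD, n = 4 each; log2 difference 0.52, SE 0.20, limma adjusted p = 0.0851), COP against DA gave 0.52 (SE 0.20, limma adjusted p = 0.101), and F344 against LEW -0.0032 (SE 0.20, limma adjusted p = 0.996). LEW replicate 4, at 355, was the highest of all arrays, and without it F344 minus LEW was 0.20 (limma adjusted p = 0.533). F344 against DA passed without LEW replicate 4 (limma adjusted p = 0.0443), with array weights (limma adjusted p = 0.0491) and with averaged probe sets (limma adjusted p = 0.0384). COP against DA passed with averaged probe sets (limma adjusted p = 0.0499). The DA mean lies under the filter level. The second probe set of Tnfsf11 gave signals of 236, 215, 228 and 299 on the F344 arrays, 156, 209, 166 and 270.3 on the LEW arrays, 276, 247, 267 and 186 on the COP arrays, and 182, 113, 198 and 134 on the DA arrays. It differed between F344 and DA (log2 difference 0.67, SE 0.22, limma adjusted p = 0.0439) without overlap, so the probe sets of this gene fell on opposite sides of the threshold with differences of the same sign.

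Tnfrsf11b had signals of 822, 648, 658 and 758 on the F344 arrays, 569, 858, 679.6 and 1181 on the LEW arrays, 985, 819, 893 and 883 on the COP arrays, and 749.8, 659, 530.4 and 675 on the DA arrays. COP averaged 895 ± 68.2 and DA 654 ± 91.1 (SD, n = 4 each), did not overlap and did not pass (log2 difference 0.46, SE 0.16, limma adjusted p = 0.0731), but the pair passed without LEW replicate 1 or 4 (limma adjusted p 0.0209 to 0.0359) and in a fit of these 2 strains alone (limma adjusted p = 0.0210). F344 against COP (-0.31, limma adjusted p = 0.199) also passed in a fit of its 2 strains alone (limma adjusted p = 0.0388). F344 and LEW overlapped (log2 difference -0.14, SE 0.16, limma adjusted p = 0.646). LEW replicates 1 and 4 were the second lowest and the highest of the 16 arrays. Tnfrsf11a, the receptor on osteoclast precursors, had signals of 199, 85.1, 227 and 176 on the F344 arrays, 104, 147, 165 and 183 on the LEW arrays, 196, 169, 230.4 and 168 on the COP arrays, and 185, 211, 193 and 124 on the DA arrays, with a mean just under the filter level, and was not tested. All 4 strains overlapped.

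The log2 signal of Tnfsf11 minus that of Tnfrsf11b on the same array was compared between strains as 1 value per array. Signals of different probe sets have no common scale, so only its differences between strains have a meaning. It was -1.97, -1.30, -1.39 and -1.85 on the F344 arrays, -1.54, -2.22, -1.56 and -1.73 on the LEW arrays, -2.01, -1.81, -1.88 and -2.06 on the COP arrays, and -2.10, -2.37, -1.67 and -1.85 on the DA arrays. All pairs of strains overlapped. F344 minus DA was 0.37, F344 minus COP 0.32 and F344 minus LEW 0.14. The smallest two-sided exact permutation p of the 6 pairs was 0.143, and every p adjusted over the 6 was 0.514 or higher. With 4 arrays against 4 the test can give 0.0286 at the least, and a single pair at that value would not pass once adjusted over the 6.

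**Figure D3:**
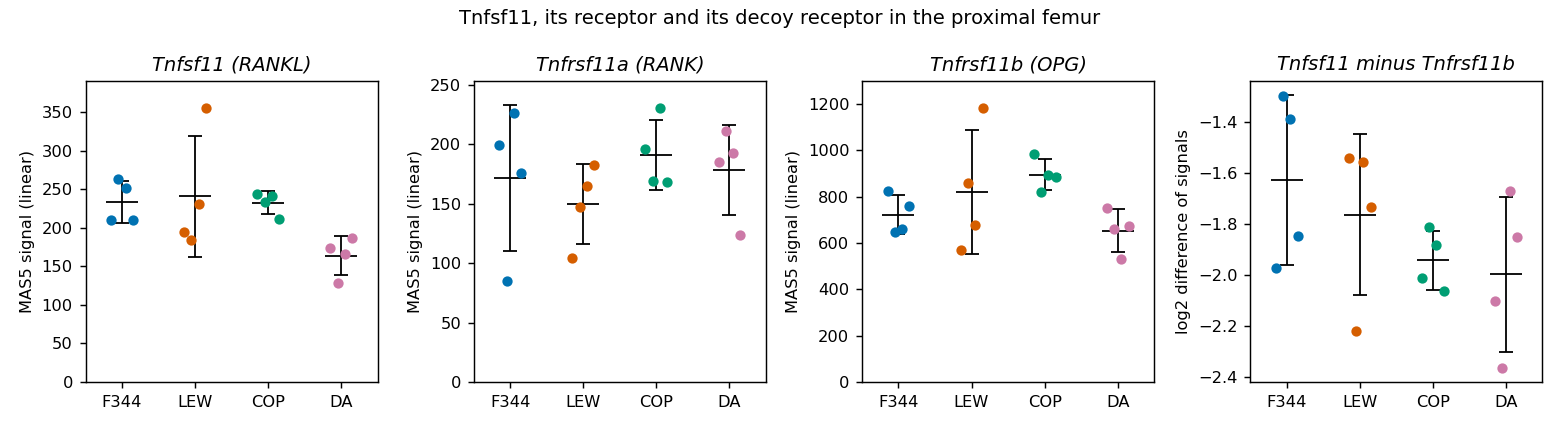
Signals of Tnfsf11, Tnfrsf11a and Tnfrsf11b on a linear scale (y axes of the first 3 panels) and the log2 signal of Tnfsf11 minus that of Tnfrsf11b (last panel) by strain (x axis). Points are arrays and bars the mean and SD of 4 arrays. LEW replicate 4 is the highest array for Tnfsf11 (355) and Tnfrsf11b (1181), and the strains overlap in the last panel.

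Genes of osteoclasts, the cells that Tnfsf11 acts on, passed the F-test in 6 of 14 cases, or 42.9%, against 32.9% of all genes. LEW against COP had the most calls, 1 higher and 4 lower (35.7% against 14.1% of all genes), among them Tyrobp, an adaptor of myeloid cells that is needed for osteoclast formation (-0.52, limma adjusted p = 0.00419). F344 against LEW had 2 higher and 0 lower, Csf1r, the receptor of macrophage colony-stimulating factor (0.30, limma adjusted p = 0.0151), and Atp6v1c1, a proton pump subunit (0.20, limma adjusted p = 0.0493). F344 against COP had 0 higher and 1 lower. Outside LEW against COP, no pair had a share above that of all genes. It was 14.3% against 14.5% in F344 against LEW and 7.14% against 21.0% in F344 against COP. For F344 against DA it was 14.3% against 17.3%. For LEW against DA and COP against DA it was 7.14%, against 10.4% and 12.2%. Mmp9, a matrix protease of osteoclasts and neutrophils, was higher in F344 than in DA (0.39, limma adjusted p = 0.00270) and higher in LEW than in DA (0.62, limma adjusted p = 2.44e-05), while Car2, the carbonic anhydrase that supplies acid for resorption and is also abundant in red cells, was lower in F344 than in DA (-0.26, limma adjusted p = 0.00340) and lower in COP than in DA (-0.27, limma adjusted p = 0.00425). The summed signals of the 14 were 139233 to 147053 for F344, 137716 to 153977 for LEW, 135892 to 155625 for COP and 134258 to 145606 for DA. Of 11 osteoblast and osteocyte genes, 3 higher and 0 lower passed in F344 against DA, with Phex, an endopeptidase of osteocytes, at 0.55, limma adjusted p = 0.00365, and Alpl, the alkaline phosphatase of mineralization, at 0.53, limma adjusted p = 0.00728. In LEW against DA 2 higher and 0 lower passed, and in COP against DA 1 higher and 0 lower. Pairs without DA gave 1 higher and 0 lower in F344 against LEW, 0 higher and 1 lower in F344 against COP, and 0 by limma in LEW against COP, with 2 at an unadjusted p under 0.05. Of these 11 genes, 27.3% passed in F344 against DA (17.3% of all genes) and 18.2% in LEW against DA (10.4%). In COP against DA it was 9.09% (12.2% of all genes). Pairs without DA lay under all genes, at 9.09% for F344 against LEW (14.5%) and F344 against COP (21.0%). All of those that passed against DA were lower in DA, as Tnfrsf12a was. Their summed signals overlapped between all strains (280735 to 308156 for F344, 285146 to 324377 for LEW, 276512 to 319421 for COP and 281381 to 338108 for DA), and their part in those differences was not tested.

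Chromosome 4 carried 2 members, Ltbr and Tnfrsf1a, with 1 protein-coding gene between them on GRCr8. Ltbr, the receptor of the lymphotoxin trimer, which supports the formation of lymphoid organs, had signals of 1747, 1522, 1777 and 1611 on the F344 arrays, 1596, 1393, 1344 and 1459 on the LEW arrays, 1628, 1451, 1291 and 1459 on the COP arrays, and 1512, 1386, 1500.2 and 1314 on the DA arrays. F344 averaged 1664 ± 119 and LEW 1448 ± 109 (SD, n = 4 each), overlapped in part and did not pass (log2 difference 0.20, SE 0.083, limma adjusted p = 0.122). F344 did not overlap DA, at 1428 ± 94.7, and did not pass there either (log2 difference 0.22, SE 0.083, limma adjusted p = 0.0781). With array weights Ltbr passed for F344 minus LEW (limma adjusted p = 0.0435) and for F344 minus COP (limma adjusted p = 0.0472). Tnfrsf1a, the main receptor of TNF with a death domain, had signals of 1885, 2014, 2086 and 2290.4 on the F344 arrays, 2130.1, 2256, 2059 and 2148 on the LEW arrays, 2149.8, 1963, 2881 and 2141 on the COP arrays, and 2229.8, 2363, 2272 and 2215 on the DA arrays, and F344 minus LEW was -0.057 (SE 0.091, limma adjusted p = 0.749). COP replicate 3 was its highest array, and all pairs of strains overlapped.

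The other 6 members above the filter did not pass in any pair. Cd40, the receptor through which T cells help B cells and macrophages, ranged over the 16 arrays from 178 to 352 with a median of 270.1, with a largest difference of -0.33 for F344 minus COP (SE 0.17, limma adjusted p = 0.179). Fas, a death receptor, ranged from 342 to 570.5 with a median of 497, with -0.32 for F344 minus COP (SE 0.12, limma adjusted p = 0.0803), which passed without F344 replicate 4 (limma adjusted p = 0.0285). Its probe set has a suffix that marks probes shared between transcripts, and its other 2 probe sets were under the filter. Tnfrsf26, another receptor, ranged from 532 to 791 with a median of 635, with 0.29 for COP minus DA (SE 0.10, limma adjusted p = 0.0699), which passed without COP replicate 3 (limma adjusted p = 0.0364). For F344 minus DA, the 1 pair without overlap, Tnfrsf26 gave 0.29 (SE 0.10, limma adjusted p = 0.0611), and it passed without DA replicate 1 (limma adjusted p = 0.0463). Tnfrsf21 (DR6), a death-domain receptor, ranged from 996 to 1515 with a median of 1272, with 0.20 for COP minus DA (SE 0.098, limma adjusted p = 0.217). Its second probe set passed for LEW minus COP (log2 difference -0.30, SE 0.097, limma adjusted p = 0.0465), where the representative gave -0.14. Tnfrsf25 (DR3), a death-domain receptor of T cells, ranged from 201 to 371 with a median of 292, with 0.28 for F344 minus DA (SE 0.17, limma adjusted p = 0.296). Tnfsf9, the ligand of Tnfrsf9, ranged from 126 to 262 with a median of 181, with -0.17 for F344 minus DA (SE 0.22, limma adjusted p = 0.654), and had the smallest share of variance between strains of the 17, 6.01%.

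Another 11 members were under the filter and were not tested: the ligands Tnf, Lta, Cd40lg, Faslg and Tnfsf4 and the receptors Tnfrsf1b, Tnfrsf4, Tnfrsf8, Tnfrsf9, Tnfrsf11a and Tnfrsf17. Over all arrays their signals ran from 1.85 to 230.4, with medians from 26.2 for Tnfrsf9 to 179 for Tnfrsf11a. Tnf itself, the inflammatory cytokine that names the family, ranged from 6.05 to 112, with a median of 64.7. Within a strain the SD of their log2 signals was 0.41 to 1.38, against 0.095 to 0.30 in the 17 members above the filter.

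**Figure D4:**
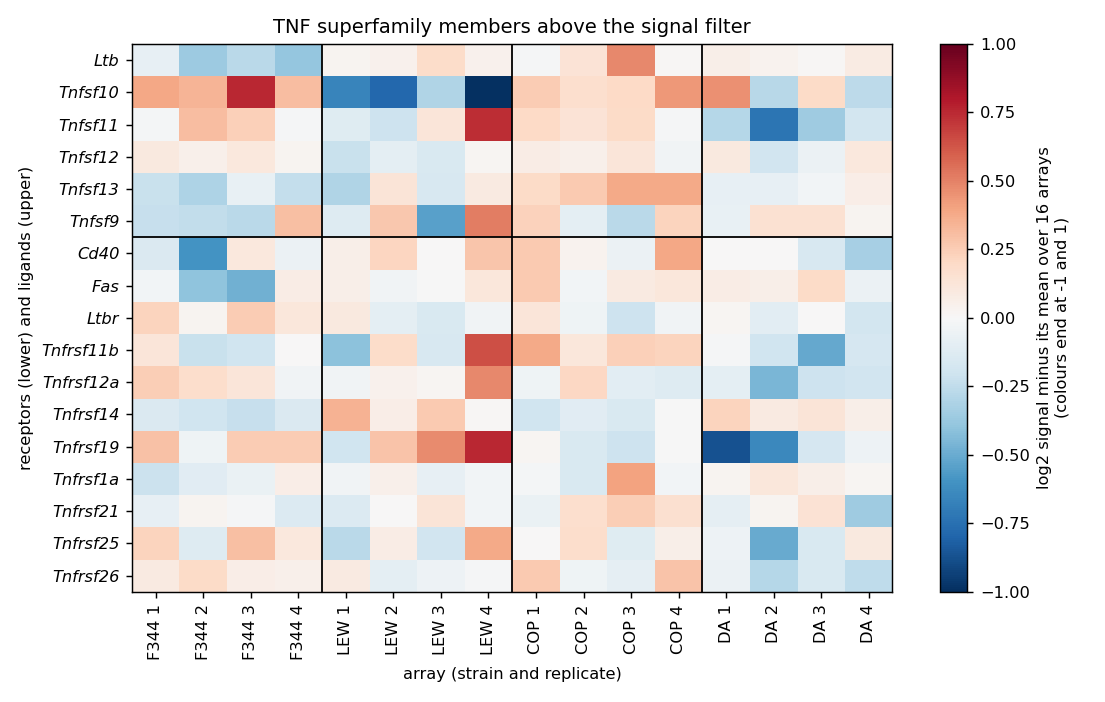
Log2 signal minus its mean over 16 arrays (colour) of the 17 members above the filter (rows, ligands above the line and receptors under it) on each array (columns, by strain). Colours end at -1 and 1. Tnfsf10 is lowest on LEW replicate 4 (98.6), on which Tnfsf11 (355), Tnfrsf11b (1181) and Tnfrsf19 (352) are highest.

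Genes that carry the signal of these receptors inside the cell, a list of 42 adaptors, caspases, NF-kB subunits and their inhibitors of which 36 were tested, were tested in the same fit. The F-test called 7 of 36, or 19.4%, beside the 32.9% of all genes given above, and no test of this difference was made. For F344 minus LEW it was 1 of 36 (2.78%), 0 higher and 1 lower, and 0 without F344 replicate 1 or 2 or LEW replicate 2 or 3. For F344 minus COP it was 7 of 36 (19.4%), 1 higher and 6 lower, and 3 without F344 replicate 2 and 4 without COP replicate 4. For F344 minus DA it was 3 of 36 (8.33%), 0 higher and 3 lower, and 1 without F344 replicate 1. For LEW minus COP it was 4 of 36 (11.1%), 0 higher and 4 lower, and 1 without COP replicate 4 and 2 without LEW replicate 1 or COP replicate 3. For LEW minus DA it was 1 of 36 (2.78%), 0 higher and 1 lower, and 2 without LEW replicate 1 or DA replicate 4. For COP minus DA it was 2 of 36 (5.56%), 1 higher and 1 lower, and 1 without F344 replicate 1, 2, 3 or 4, LEW replicate 2 or 3, COP replicate 1, 3 or 4 or DA replicate 1 or 4 and 4 without LEW replicate 4 or DA replicate 3. In every pair the share of this list was under that of all genes. The latter was 14.5% for F344 minus LEW, 21.0% for F344 minus COP and 17.3% for F344 minus DA. For LEW minus COP, LEW minus DA and COP minus DA it was 14.1%, 10.4% and 12.2%. Median log2 differences of the list lay between -0.058 and 0.018.

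Bid, which links death receptors to the mitochondrial path of apoptosis, was lower in F344 than in each other strain, with means of 1305 ± 64.4 for F344, 1589 ± 106 for LEW, 1812 ± 173 for COP and 1643 ± 138 for DA (SD, n = 4 each). Its log2 differences were -0.28 against LEW (limma adjusted p = 0.0243), -0.47 against COP (limma adjusted p = 0.000293) and -0.33 against DA (limma adjusted p = 0.00819). Cyld, a deubiquitinase that limits NF-kB activation, was lower in F344 than in COP (-0.48, limma adjusted p = 0.00225), as was Tank, an adaptor that binds TRAF proteins (-0.29), which was also lower in F344 than in DA (-0.32). Tradd, the adaptor of the death domain of Tnfrsf1a, was lower in F344 than in DA (-0.32) and lower in LEW than in COP (-0.40) and DA (-0.44). Nfkb1, an NF-kB subunit, and Traf5 were lower in LEW than in COP (-0.35 and -0.34). Ikbkb, a kinase that releases NF-kB from its inhibitors, was higher in COP than in DA (0.31, limma adjusted p = 0.00942), and Ripk1, a kinase of the Tnfrsf1a complex, was lower (-0.24, limma adjusted p = 0.0479).

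**Figure D5:**
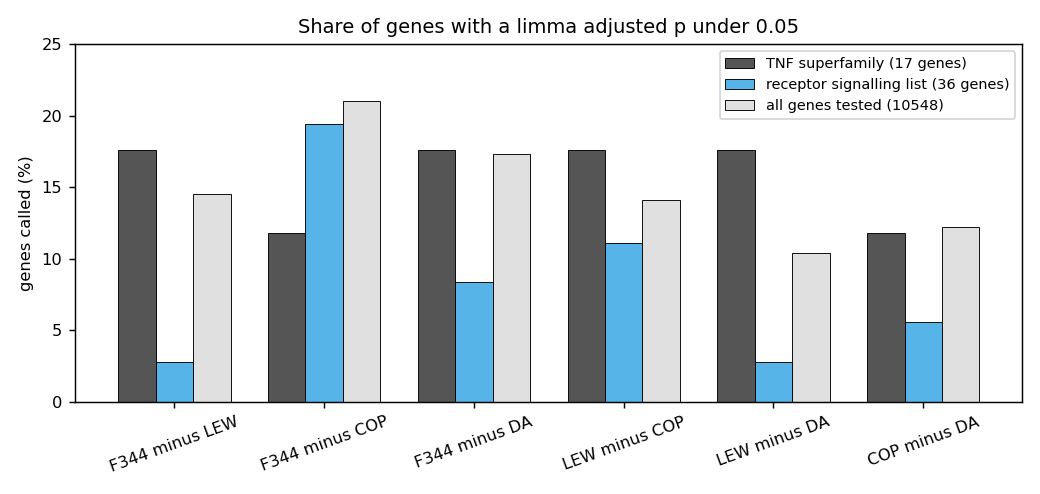
Share of genes with a limma adjusted p under 0.05 (y axis, percent) for each pair of strains (x axis), for the 17 tested members, the 36 tested genes of the receptor signalling list and all 10548 genes tested. For F344 minus LEW the shares are 17.6%, 2.78% and 14.5%. A share of 17.6% stands for 3 members.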

How the data were processed

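Signals of 31099 probe sets on 16 arrays were used. The deposited intensity values were made by the authors with MAS5 (submitters' processing notes, no version). Detection calls and a scaling target were not used here, and the 2% trimmed mean was about 1000 on each array. Left out were 57 control probe sets. Probe sets were named through the platform annotation: of 31042, 20826 had 1 symbol, 436 several and 9780 none. Gene identifiers were matched to RefSeq on GRCr8 (20758 probe sets; 0 symbols changed) for chromosomes and gene order.

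Signals below 1 (255 values) were set to 1 before log2 was taken, without a pseudocount. Probe sets with a mean log2 under the 40th percentile (signal 174) were dropped, leaving 18625. A model with a mean for every strain was fitted to the 16 arrays together with limma 3.58.1 (R 4.3.3), with an intensity trend and 12 residual degrees of freedom. P-values were two-sided and Benjamini-Hochberg adjusted over those probe sets, and 0.05 was the threshold. Of several probe sets of a gene the one with the highest mean was counted, for 10548 genes in all. The fit was tested on simulated data.

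Members, gene lists and tests were chosen with earlier results of these data known. The cell type lists set beside Tnfsf10, Tnfsf13, Ltb and Tnfrsf14 were taken from several such lists. Most of these lists passed the F-test more often than all genes, so a likeness to a member is no separate support. Full values are given by rule for Tnfsf11, Tnfrsf11a, Tnfrsf11b, members on chromosome 4 and members past the F-test; for the signalling genes and those under other symbols, up to 3 called per comparison were named, and up to 2 of each cell type list. Tnfsf12 is given in full as the neighbour of Tnfsf13, and second probe sets as a check, both chosen after their values were seen. Exact permutation tests used scipy 1.17.1. Alternatives were array weights, a replicate block, no intensity trend, fits of 2 strains alone, quantile normalization, median centring, a pseudocount (10th percentile of the values), a filter at the 60th percentile or none, averaging the probe sets of each gene, and each array left out in turn.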

Additional observations from a re-analysis of the deposited data

Results flagged for a closer look

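In 5 of the 68 groups of 4 arrays formed by the 17 tested members and 4 strains, 1 array lay far from the other 3, by Dixon's criterion for 4 values. Chance gives about 1 in 20 such groups, or 3.4 of 68, so these 5 are near what chance gives. Ltb had a signal of 794 on LEW replicate 3, against 715 to 721 on the other arrays of its strain. Tnfrsf12a had a signal of 1228 on LEW replicate 4, against 860.5 to 906 on the other arrays of its strain. Tnfrsf19 had a signal of 204 on F344 replicate 2, against 249 to 257 on the other arrays of its strain. Tnfsf10 had a signal of 385 on F344 replicate 3, against 284 to 299 on the other arrays of its strain. Tnfsf9 had a signal of 227 on F344 replicate 4, against 152 to 157 on the other arrays of its strain.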

How the results depend on the processing

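Across the alternatives and the arrays left out, the 16 calls of single members were kept in 353 of 412 cases and lost in 59, with 0 reversals. Leaving out an array of a strain outside the pair does not change the log2 difference. Those cases could lose a call but could not reverse. Tnfsf10 for F344 minus LEW and LEW minus COP, Tnfsf13 for F344 minus COP and LEW minus COP, Ltb for F344 minus COP, and Tnfrsf14 for F344 minus LEW, F344 minus DA and LEW minus COP passed wherever they were tested. Their log2 differences ranged over 1.03 to 1.33 for Tnfsf10 in F344 minus LEW, -0.57 to -0.48 for Tnfsf13 and -0.50 to -0.32 for Ltb in F344 minus COP. At the 60th percentile Tnfsf10, Tnfrsf19 and Tnfsf11 were no longer tested. Members called numbered with array weights 4 for F344 minus COP and 5 for F344 minus DA, with no filter 1 for F344 minus DA and 1 for LEW minus DA, with no intensity trend 5 for F344 minus DA and 1 for COP minus DA, with averaged probe sets 6 for F344 minus DA, with a filter at the 60th percentile 1 for LEW minus DA, in fits of 2 strains alone 0 for LEW minus DA. With 1 array left out the ranges were 1 to 5 for F344 minus DA, 0 to 3 for LEW minus DA and 1 to 3 for COP minus DA. Of the 0 members for LEW minus DA by limma, 4 in fits of 2 strains alone and 3 without LEW replicate 4 had an unadjusted p under 0.05. Signalling genes called numbered with array weights 2 for F344 minus LEW and 2 for LEW minus DA, with averaged probe sets 2 for F344 minus LEW, 2 for LEW minus DA and 4 for COP minus DA, with quantile normalization 2 for LEW minus COP and 2 for LEW minus DA, with median centring 2 for LEW minus COP and 2 for LEW minus DA, with a filter at the 60th percentile 2 for LEW minus DA and 4 for COP minus DA, with no intensity trend 2 for LEW minus DA, with no filter 1 for COP minus DA, in fits of 2 strains alone 1 for COP minus DA. With 1 array left out the ranges were 0 to 1 for F344 minus LEW, 3 to 8 for F344 minus COP, 1 to 4 for F344 minus DA, 1 to 5 for LEW minus COP, 1 to 2 for LEW minus DA and 1 to 4 for COP minus DA. The F-test called 4 to 7 of the members over all alternatives. Same-numbered arrays of different strains did not deviate together (correlations of -0.173 to 0.0875 over 24 pairs, none over 0.1). This check takes all probe sets above the filter at once and cannot exclude small or gene-specific effects shared by replicate number. With the replicate block the F-test called 5 members and Tnfrsf12a lost its calls for F344 minus DA (limma adjusted p = 0.0557) and LEW minus DA (limma adjusted p = 0.0766). With no filter Tnfrsf11a gave 0.14 for F344 minus LEW (limma adjusted p = 0.877), and by limma 0 of 66 tests of the 11 dim members between pairs passed, with 4 at an unadjusted p under 0.05. For the Tnfsf11 minus Tnfrsf11b value, 4 arrays against 4 leave little room to pass after adjustment, and its alternatives say nothing on stability. The causes were not tested.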

Other observations

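A list of 13 genes under other symbols was set beside the family, some of them named for their induction by TNF. Of these, 9 had a probe set and 6 were tested. By the F-test of limma 2 of the 6, or 33.3%, differed among the strains, close to the 32.9% of all genes. These 2, Pglyrp1 and Tnfaip8, are not among the 28 members. Pglyrp1, a peptidoglycan-binding protein of neutrophil granules, averaged 4237 ± 145 for F344, 4323 ± 399 for LEW, 6646 ± 454 for COP and 5989 ± 867 for DA (SD, n = 4 each). It was lower in F344 than in COP (-0.65, limma adjusted p = 1.24e-05) and DA (-0.49, limma adjusted p = 0.000417), and lower in LEW than in COP (-0.62) and DA (-0.46). Tnfaip8, a cytosolic protein induced by TNF, averaged 1234 ± 102 for F344, 1222 ± 77.6 for LEW, 1604 ± 84.0 for COP and 1313 ± 63.5 for DA (SD, n = 4 each). COP was the strain that stood apart, with F344 minus COP at -0.38 (limma adjusted p = 0.00124), LEW minus COP at -0.39 and COP minus DA at 0.29 (limma adjusted p = 0.0162). Both genes were high in COP, where Tnfsf13 and the neutrophil granule list were also high. Pglyrp1 was high in DA as well and did not pass for COP minus DA. The part of neutrophils in the differences of Pglyrp1 and Tnfaip8 was not tested.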
